A study of Mus musculus with 28 samples.

Results

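Histone genes were followed through 28 RNA-seq libraries of CD4+ T cells that had been isolated from mouse small-intestinal lamina propria. A row of the deposited table counted as a histone gene when its length was under 1200 bases and its symbol began with Hist, H1f, H2ac, H2bc, H3c, H4c or H1-, or with H2a followed by b, c, x, j or z. The rule found 68 of 25124 rows, which are 7 H1, 18 H2A, 18 H2B, 12 H3 and 13 H4 genes. Of these, 54 lie on chromosome 13, 9 on chromosome 3, 3 on chromosome 11 and 2 on chromosome 6. Most of the rows found are replication-dependent genes. Among them are also the testis genes Hist1h1t, Hist1h2aa and Hist1h2ba, the pseudogene Hist3h2bb-ps, and H1fx, a replication-independent linker histone. Most other variant histone genes, such as H3f3a and H2afz, carry names outside the rule and are described separately.

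All mice carried the reporter T-bet-ZsGreen, a fluorescent marker of the transcription factor T-bet, in treated and control groups alike. Housing was either specific-pathogen-free (SPF), where mice keep gut microbes, or germ-free (GF), where they have none. Treatment was anti-CD3 (aCD3), an antibody to a signalling chain of the T cell receptor, or a control antibody of its isotype. SPF mice gave 6 isotype and 6 aCD3 libraries, each with 3 females and 3 males. GF mice gave 10 isotype libraries, from 5 females and 5 males, and 6 aCD3 libraries, from 1 female (F1) and 5 males (M1 to M5). The age of the mice, the dose and the time from injection to sampling are not given in the sources used here. Nothing in the labels says that libraries of a group came from separate animals, so p-values measure only the spread between these libraries.

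Histones are the proteins around which DNA is wound: H2A, H2B, H3 and H4 build the nucleosome core, and H1 binds the linker DNA that enters and leaves it. Replication-dependent histone genes lie in clusters, lack introns and are transcribed mainly in S phase, when new DNA must be packed. Their mRNAs end in a conserved stem-loop in place of a poly(A) tail, whereas replication-independent variants are made throughout the cell cycle from ordinary, mostly spliced and polyadenylated mRNAs. T cells that have been activated through their receptor enter the cell cycle, so histone mRNA is one readout of how much of a T cell population is copying its DNA.

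The promoters of the classes differ in their known elements, and are shown here because the genes behind them changed together in the comparisons described further on. The 6 stretches are the 130 bases before the annotated start of the H1 gene with the smallest and the H1 gene with the largest response to aCD3, of the H2A, H3 and H4 genes with the highest mean level, and of the H2B gene with the largest response. They come from RefSeq (build GRCm38.p6), read 5′ to 3′ along each gene. Capitals mark matches on either strand to the CCAAT box, the TATA box, the octamer, the H1 box or the H4 element, whose letters are spelled out with their counts; no string contains another.
Hist1h1c, chr13:23738677-23738806, plus strand: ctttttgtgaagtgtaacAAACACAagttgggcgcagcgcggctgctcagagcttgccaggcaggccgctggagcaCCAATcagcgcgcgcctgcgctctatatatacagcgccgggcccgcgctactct
Hist1h1b, chr13:21780626-21780755, minus strand: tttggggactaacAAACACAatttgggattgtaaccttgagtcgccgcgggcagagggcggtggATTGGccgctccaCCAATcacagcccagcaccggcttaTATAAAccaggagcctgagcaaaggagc
Hist1h2ab, chr13:23750958-23751087, plus strand: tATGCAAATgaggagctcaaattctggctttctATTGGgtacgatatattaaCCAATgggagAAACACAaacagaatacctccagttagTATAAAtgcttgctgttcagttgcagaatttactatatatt
Hist1h2bm, chr13:21721914-21722043, plus strand: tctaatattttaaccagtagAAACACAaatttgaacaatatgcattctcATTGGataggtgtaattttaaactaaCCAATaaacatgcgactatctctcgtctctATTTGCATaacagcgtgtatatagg
Hist1h3c, chr13:23745522-23745651, minus strand: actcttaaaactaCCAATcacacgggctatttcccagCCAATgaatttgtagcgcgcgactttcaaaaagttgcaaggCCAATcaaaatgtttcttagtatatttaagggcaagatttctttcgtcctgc
Hist1h4d, chr13:23581438-23581567, plus strand: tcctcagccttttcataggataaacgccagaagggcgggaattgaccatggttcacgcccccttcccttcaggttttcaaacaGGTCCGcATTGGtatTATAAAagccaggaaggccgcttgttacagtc

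RefSeq promoters were matched to 63 of 68 members by accession, and 58 of them started within 20 bases of the start in the deposited table. In these 58 windows of 300 bases, from 250 before to 50 after the start, the letters CCAAT of the CCAAT box were present in 6 of 7 H1, 15 of 15 H2A, 15 of 15 H2B, 9 of 9 H3 and 3 of 12 H4 promoters, against 37.4% of 32851 promoters of the same length. The H4 element, searched as GGTCCG, was found in 11 of 12 H4 promoters and in 3 promoters of the other classes, against 8.25% of all promoters. The octamer ATTTGCAT stood in 7 of 15 H2A and 7 of 15 H2B promoters and in 0 of the H1, H3 and H4 promoters, against 1.74% overall. Windows of an H2A and an H2B gene that stand head to head can overlap, so the same site can count for both. Both partners had the octamer letters in Hist1h2ah with Hist1h2bk, Hist1h2ae with Hist1h2bg and Hist1h2aa with Hist1h2ba. The H1 box, searched as AAACACA, stood in 5 of 7 H1 promoters and in 4 promoters of other classes, against 7.18% overall. The TATA box, searched as TATAAA, stood in 34 of 58, against 13.6% overall. These are matches of letters and not measured binding.

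The stem-loop at the end of the mRNA is the other sequence that sets these genes apart, and it bears on how they can be measured. It is given in capitals, with 5 flanking bases on each side, from the GENCODE M21 transcripts of 5 members that carry 4 of its forms.
Hist1h1c: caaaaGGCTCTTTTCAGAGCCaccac
Hist1h2bm: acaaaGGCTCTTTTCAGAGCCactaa
Hist1h3c: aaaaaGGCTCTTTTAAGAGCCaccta
Hist1h4d: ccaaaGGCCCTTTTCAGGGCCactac
Hist1h4b: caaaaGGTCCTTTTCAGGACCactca

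A stem-loop was found in the transcript models of 46 of 68 members (4 H1, 11 H2A, 10 H2B, 9 H3 and 12 H4), against 0.0463% of 21621 other coding transcripts of at most 1200 bases. Members were counted by gene over models of any length and the others by transcript, so these shares differ in unit and length limit. The form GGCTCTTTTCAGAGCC was shared by 26 genes of the H1, H2A, H2B and H3 classes and by 0 H4 genes, and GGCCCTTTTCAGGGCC by 7 genes that were all H4. The stem-loop began 21 to 58 bases after the stop codon, with a median of 31. Of the 22 members without a match, 15 had models that end under 20 bases after the coding sequence. Since mRNAs that end at the stem-loop carry no poly(A) tail, selection for poly(A) RNA would miss them. Per the labels' protocols a kit for total RNA was used, but the labels give polyA RNA as the molecule, and which of the 2 holds was not settled here.

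Levels are TPM, the share of a library that a transcript takes after division by its length, and the low-value filter kept genes with at least 1 TPM in at least 6 libraries. Of the 68 members, 65 passed it. The 3 others were at or near 0: H1fx was at 0 in 23 of 28 libraries, and the testis genes Hist1h1t and Hist1h2aa were at 0 in 19 and 25. The median member is 478 bases long, against 13112.5 bases over all rows, because lengths in the table are genomic spans with introns. Histone TPM is therefore large beside that of spliced genes. Levels of single genes are compared only among the histone genes, and shares of all TPM depend on these lengths. A total of 6765529 to 17860611 reads per library fell in genes, of which 28049 to 249746 fell in the histone rows.

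Some members cannot be told apart by reads. In 4 pairs the rows overlap over at least 451 bases and their TPM values correlate at r = 1.0 over the 28 libraries, with levels that differ slightly: Hist1h2br with Hist1h2bq, Hist1h2ao with Hist1h2ap, Hist2h2aa1 with Hist2h2aa2, and Hist2h3c1 with Hist2h3c2. Among the 67 members with a coding transcript model, 50 share over 50% of their 50-base stretches exactly with another member, and 31 share over 50% of their stretches of 150 bases, the labelled read length. Sharing at 50 bases over more than 50% of the gene affected 0 of 7 H1, 15 of 18 H2A, 13 of 17 H2B, 12 of 12 H3 and 10 of 13 H4 genes. How reads that fit several genes were counted is not given in the sources used here, so values of single H2A, H2B, H3 and H4 genes are less certain than those of H1 genes.

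Histone transcripts took over 23% of all TPM in SPF mice given aCD3, and under 10% in either isotype group. Together the 68 genes took 4.05% to 7.04% of TPM in SPF isotype (median 4.96%), 23.8% to 26.8% in SPF aCD3 (median 25.8%) and 3.79% to 9.24% in GF isotype (median 6.34%). In GF aCD3 they took 23.4% in M1, 23.1% in M2, 26% in M5, 7.46% in M3, 6.43% in M4 and 5.39% in F1. The SPF groups were far apart, while the GF aCD3 libraries spanned the distance between the isotype and the SPF aCD3 levels. As a share of reads the genes took far less, 0.227% to 0.412% in SPF isotype and 1.71% to 2.14% in SPF aCD3. In GF isotype that share was 0.1985% to 0.510%, and in GF aCD3 0.286% to 1.91%. In bulk samples, fewer cells with histone mRNA and less histone mRNA per cell cannot be told apart.

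**Figure D1:**
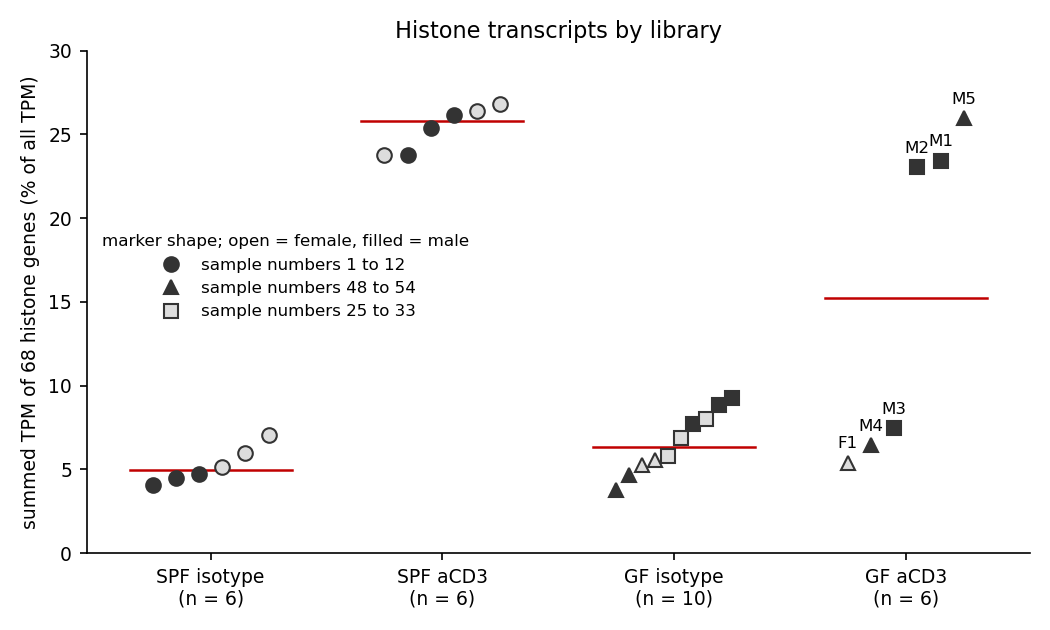
Summed TPM of the 68 histone genes as a percent of all TPM (vertical axis) in each library of the 4 groups (horizontal axis); points are libraries, open for female and filled for male mice, shapes give the sample numbers in the column names, and red lines are group medians. SPF aCD3 lies between 23.8% and 26.8%, above every isotype library, and the GF aCD3 libraries lie either near that level (M1, M2, M5) or among the isotype libraries (F1, M3, M4).

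CD4+ T cell markers were present throughout: Cd3e, a chain of the receptor complex, was at 274 to 430 TPM and Cd4 at 166 to 275 TPM. The summed TPM of 6 B and plasma cell genes was 95.7 to 272 in SPF isotype, 2.51 to 8.77 in SPF aCD3, 11 to 114 in GF isotype and 6.67 to 97.7 in GF aCD3, nearly all of it Jchain, and the B cell gene Ms4a1 was under 1 TPM in every library. In GF aCD3 that sum was 97.7 in M3, 30.6 in M4 and 19.4 in F1, against 6.67 to 8.29 in M1, M2 and M5. The 6 myeloid genes summed to at most 13 TPM and 6 epithelial genes to at most 41.8 TPM in any library. Between the SPF groups the epithelial sum went from 6.17 to 11.3 TPM in isotype to 2.69 to 6.16 TPM in aCD3, and that of 5 erythroid genes from 2.29 to 7.07 TPM to 0.716 to 1.28 TPM, both without overlap. In GF aCD3 the epithelial sum was 28 in F1, 20.4 in M4 and 9.77 in M3, against 4.69 to 6.31 in M1, M2 and M5. A pair of CD8 T cell genes summed to 5.68 to 13.5 TPM in SPF isotype and 9.75 to 23.8 TPM in SPF aCD3. In GF aCD3 that sum was 9.59 to 13 TPM in M1, M2 and M5 and 3.47 to 7.56 TPM in F1, M3 and M4, and in GF isotype 1.25 to 8.54 TPM apart from 61.2 in M4. The part of these cells in the histone differences was not tested. Column names number the SPF libraries up to 12 and the GF libraries 25 to 33 or 48 to 54, so housing and numbering cannot be told apart.

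In SPF mice aCD3 raised every histone gene that could be tested. All 65 were higher in SPF aCD3 than in SPF isotype (limma on log2(TPM + 1), Benjamini-Hochberg adjusted p from 7.82e-07 to 0.00231), where 14.2% of the 12182 genes tested were called higher and 50.7% lower. The median log2 fold change of the 65 was 2.60, against -0.35 over all genes. Since TPM values are relative to their total, scaling was varied: scaling by median of ratios moved the median of all genes from -0.35 to -0.01 and the calls from 1726 higher and 6172 lower to 3727 higher and 3575 lower. The histone genes were called higher in 65 of 65 cases there too, with a median of 3.03. In 64 of 65 members each SPF aCD3 library was above each SPF isotype library, as in 8.57% of all genes; the exception was Hist1h4m, whose highest SPF isotype library (143 TPM) exceeded all of SPF aCD3.

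The H1 genes differed most among themselves. Hist1h1c was by far the highest H1 gene under isotype, at 4109 to 5119 TPM (median 4856), and stood at 7398 to 8578 TPM (median 8144) in SPF aCD3. The groups did not overlap, yet its log2 fold change of 0.76 ± 0.15 (SE, adjusted p = 0.000127, limma) was the smallest of all 65 members. Hist1h1b went from 372 to 1017 TPM (median 705) to 4744 to 5531 TPM (median 5041), a log2 fold change of 2.94 ± 0.45 (adjusted p = 1.06e-05). Hist1h1a, the H1 gene at the lowest level of the 5 that were tested, was at 116 to 344 TPM under isotype and 1217 to 1636 TPM under aCD3 (log2 fold change 2.75 ± 0.43). Hist1h1d and Hist1h1e lay between, with log2 fold changes of 2.24 ± 0.31 and 1.91 ± 0.27.

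As a result the make-up of the H1 transcripts differed between the groups. Hist1h1c made up 47.7% to 58.5% of H1 TPM in SPF isotype and 27.4% to 29.9% in SPF aCD3. Hist1h1b made up 4.61% to 9.82% and then 17.1% to 19.3%, and Hist1h1d 12.8% to 18.3% and then 22.0% to 23.6%. None of these ranges overlapped between the SPF groups. Each H1 gene encodes a product of its own: translation of the GENCODE M21 coding sequences gave 7 products from 7 genes, against 9 from 18 H2A and 10 from 17 H2B genes.

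The H2A genes rose over a range of log2 fold changes from 1.45 to 3.20, with a median of 2.77 over 17 genes. Hist1h2ab, the H2A gene with the highest mean level, was at 327 to 1109 TPM (median 518) in SPF isotype and 4447 to 5700 TPM (median 4869) in SPF aCD3, which gave a log2 fold change of 3.17 ± 0.48 (adjusted p = 1.04e-05). Hist1h2ak was at 362 to 961 TPM and 3627 to 4129 TPM (2.66 ± 0.40 on the log2 scale). In both genes the lowest aCD3 library stood over 3-fold above the highest isotype library. Hist1h2ag, on chromosome 13, had the largest log2 fold change of the class at 3.20 ± 0.44, from a median of 183 to 1540 TPM. Hist2h2ab, on chromosome 3, had the smallest at 1.45 ± 0.29 (adjusted p = 0.000162), from 27.5 to 46.7 TPM to 65.3 to 139 TPM.

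Within the H2A class, 9 genes encode 1 common protein, and their sum made up 48.1% to 56.3% of H2A TPM in SPF isotype and 59.4% to 61.2% in SPF aCD3. Hist3h2a, which lies on chromosome 11, changed less: it was at 476 to 897 TPM in SPF isotype and 1861 to 2082 TPM in SPF aCD3 (log2 fold change 1.51 ± 0.27, adjusted p = 4.84e-05), so that its share of H2A TPM was 12.2% to 17.4% and then 6.39% to 6.72%. The testis gene Hist1h2aa had reads in 3 of 28 libraries and was not tested.

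H2B genes held the largest single response. Hist1h2bm was at 97.0 to 382 TPM (median 219) in SPF isotype and 2181 to 3012 TPM (median 2469) in SPF aCD3, which gave a log2 fold change of 3.60 ± 0.47 (adjusted p = 3e-06). Hist2h2bb and Hist1h2bb had the highest mean levels of the class. The former, on chromosome 3, was at 893 to 1902 TPM and 7144 to 9628 TPM (2.58 ± 0.34), and the latter at 521 to 1361 TPM and 6706 to 9197 TPM (3.22 ± 0.46). All 3 were separated without overlap, and Hist1h2bb ended near the level of Hist2h2bb after starting at a median of 769 against 1528 TPM.

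The smallest H2B responses were on chromosome 11. Hist3h2bb-ps, a pseudogene, was at 24.3 to 89.5 TPM in SPF isotype and 112 to 272 TPM in SPF aCD3 (log2 fold change 1.84 ± 0.42, adjusted p = 0.000541). Hist3h2ba was at 36.9 to 103 TPM and 204 to 362 TPM (2.01 ± 0.29). The testis-type gene Hist1h2ba, the H2B gene at the lowest level, was at 0 to 10.9 TPM in SPF isotype and 12.4 to 29.9 TPM in SPF aCD3 and was also called higher (log2 fold change 2.67 ± 0.65, adjusted p = 0.000889). The 18 H2B genes had a median log2 fold change of 2.57.

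The H3 genes rose within the narrowest range, with log2 fold changes from 2.20 to 3.15 and a median of 2.73 over 12 genes. Hist1h3c had both the highest mean level and the largest response, at 742 to 2248 TPM (median 1236) in SPF isotype and 9636 to 12303 TPM (median 10914) in SPF aCD3 (3.15 ± 0.48, adjusted p = 1.05e-05). Hist1h3i had the smallest response of the class, at 1389 to 2722 TPM and 7294 to 8273 TPM (2.20 ± 0.37, adjusted p = 2.66e-05). The highest of its isotype libraries, F1, was far above the next at 1688 TPM. Hist1h3e, with a log2 fold change of 2.24 ± 0.34, was close to Hist1h3i.

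Replication-dependent H3 comes as a pair of proteins that differ in 1 residue, H3.1 and H3.2. Hist1h3a, Hist1h3g, Hist1h3h and Hist1h3i encode the first and the other 8 genes the second. The H3.2 genes made up 60.1% to 65.9% of H3 TPM in SPF isotype and 68.5% to 70.2% in SPF aCD3, so the ranges did not overlap. In GF isotype the share was 65.6% to 68.7% and in GF aCD3 64.9% to 69.7%, which overlapped.

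All 13 H4 genes encode 1 protein, but their responses covered log2 fold changes from 1.34 to 3.17, with a median of 2.21. Hist1h4d was the highest H4 gene in every group, at 1917 to 3041 TPM (median 2769) in SPF isotype and 9740 to 12307 TPM (median 10862) in SPF aCD3 (2.06 ± 0.28, adjusted p = 4.34e-06). Hist1h4n, second in mean level, was at 624 to 1214 TPM and 3028 to 5696 TPM (2.21 ± 0.32). Hist1h4f had the largest log2 fold change at 3.17 ± 0.44, from a median of 515 to 4406 TPM. Hist1h4b, at 184 to 311 TPM and 1505 to 2665 TPM, had the smallest adjusted p of all members, 7.82e-07 (3.14 ± 0.35).

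At the other end of the class, Hist1h4m was at 16 to 143 TPM in SPF isotype and 70.7 to 119 TPM in SPF aCD3, which gave a log2 fold change of 1.34 ± 0.36 (adjusted p = 0.00231). Its isotype median was 29.5 TPM and only 1 library, F3, exceeded 45.7 TPM. Hist4h4, alone on chromosome 6 apart from H1fx, was at 86.0 to 319 TPM and 517 to 818 TPM (1.86 ± 0.31). Hist1h4c was at 479 to 817 TPM and 1975 to 3293 TPM (1.98 ± 0.27).

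**Figure D2:**
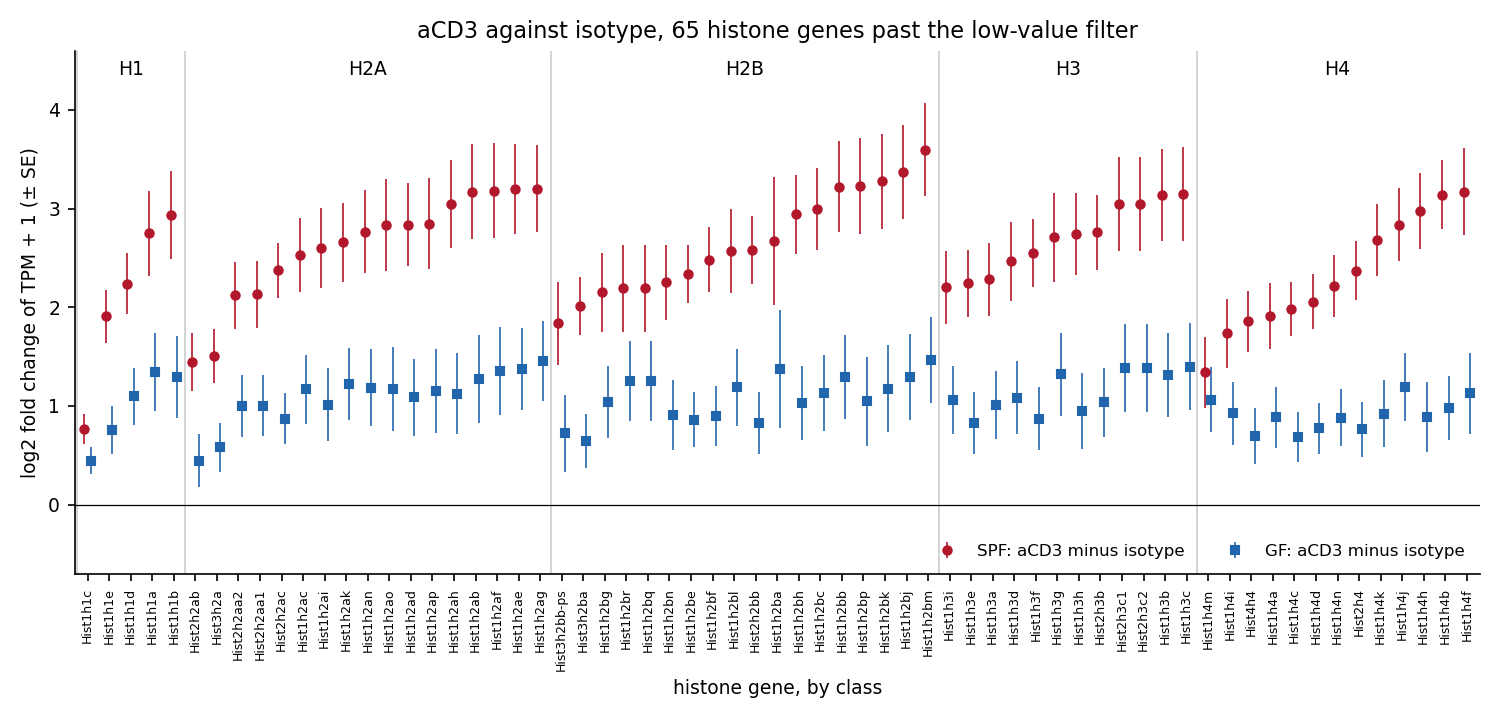
Log2 fold change of TPM + 1 with its standard error (vertical axis) for the 65 histone genes past the low-value filter (horizontal axis, by class and by SPF value), in SPF (red circles) and GF (blue squares) mice. SPF values run from 0.76 (Hist1h1c) to 3.60 (Hist1h2bm), and every GF value is positive, between 0.44 and 1.47.

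Summed by class, H1 transcripts differed least between the SPF groups. H1 genes summed to 7297 to 10518 TPM in SPF isotype (median 9186) and 25872 to 31308 TPM in SPF aCD3 (median 28076), a fold of medians of 3.06. The same fold was 6.49 for H2A, 7.30 for H2B, 6.20 for H3 and 5.00 for H4, with no overlap between the SPF groups in any class. H1 genes accordingly made up 20.6% to 28.1% of histone TPM in SPF isotype and 13.8% to 15.3% in SPF aCD3, while H2A made up 11.5% to 14.6% and 15.2% to 15.8%, and H2B 18.7% to 22.6% and 24.0% to 25.1%. The H3 shares (21.4% to 27.1% and 25.2% to 28.6%) and the H4 shares (15.8% to 22.8% and 17.1% to 20.7%) overlapped. As a share of all reads in genes, in place of TPM, the fold of medians was 4.18 for H1, 8.81 for H2A, 9.87 for H2B, 8.43 for H3 and 6.62 for H4, in the same order.

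That order rests in part on genes with shared sequence. With only the members that share at most 50% of their 50-base stretches, the fold of medians was 3.06 for all 7 H1 genes, 2.73 for 3 H2A genes, 6.35 for 4 H2B genes and 3.97 for 3 H4 genes, and no H3 gene was left. H2A then lay below H1, but the 3 H2A genes left are Hist3h2a, Hist2h2ab and the nearly silent Hist1h2aa, so that value is in effect that of Hist3h2a (median 727 and 1999 TPM). Class sums carry no test here, since the members were chosen with results of these data known.

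**Figure D3:**
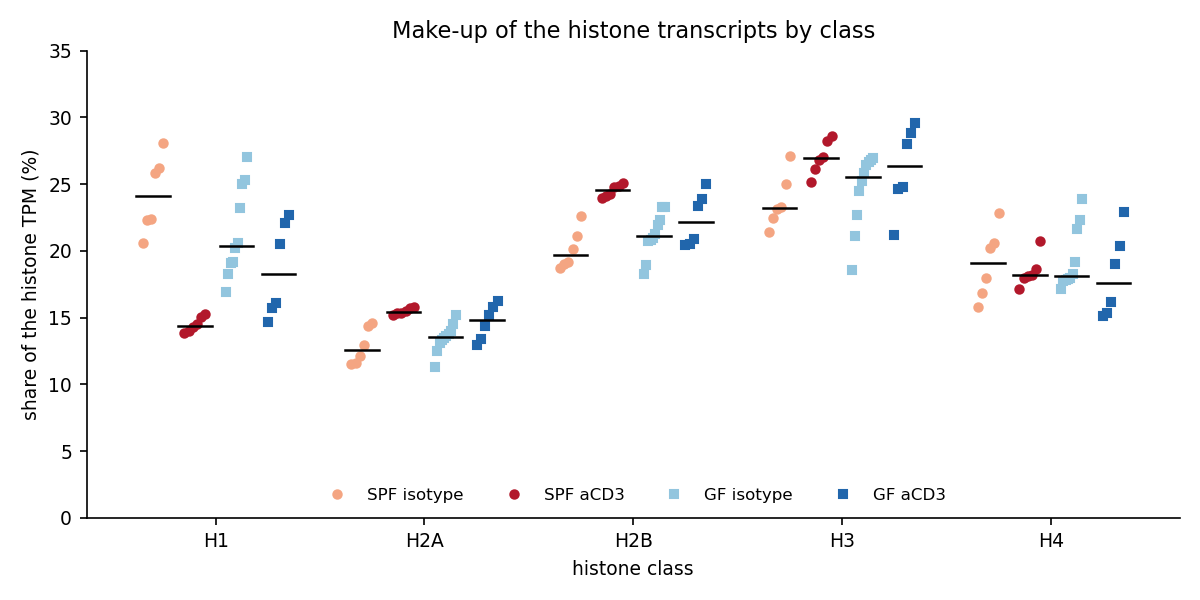
Share of each histone class in the summed histone TPM of a library (vertical axis) by class and group; points are libraries and black lines group medians. The H1 share is 20.6% to 28.1% in SPF isotype and 13.8% to 15.3% in SPF aCD3, and the GF aCD3 libraries spread between 14.7% and 22.7%.

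The chromosome 13 cluster carried most histone transcripts in every group, at 87.5% to 89.6% of histone TPM in SPF isotype and 88.2% to 89.0% in SPF aCD3. The fold of medians between SPF aCD3 and SPF isotype was 5.62 for the 54 genes on chromosome 13, 6.09 for the 9 on chromosome 3, 2.89 for the 3 on chromosome 11 and 3.27 for the 2 on chromosome 6. The chromosome 11 genes went from 566 to 1089 TPM to 2231 to 2632 TPM, and their share of histone TPM was 1.97% to 2.45% and then 1.2% to 1.28%, without overlap. Chromosome 3 genes made up 7.73% to 9.95% in SPF isotype and 9.47% to 10.2% in SPF aCD3, which overlapped.

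Along chromosome 13 the genes fall into 4 stretches separated by gaps of over 100000 bases. The first holds 18 genes, the next 5, the third 29, and the last Hist1h2aa and Hist1h2ba. Their medians of log2 fold change were 2.67, 3.20 and 2.63 for the first 3 stretches, and the summed TPM of the second stretch had the largest fold of medians, 9.76, against 6.47 for the first and 5.22 for the third. Large and small responses lay side by side: Hist1h1c (0.76) stands between Hist1h4c (1.98) and Hist1h3c (3.15), and Hist1h4m (1.34) beside Hist1h2ap (2.85).

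**Figure D4:**
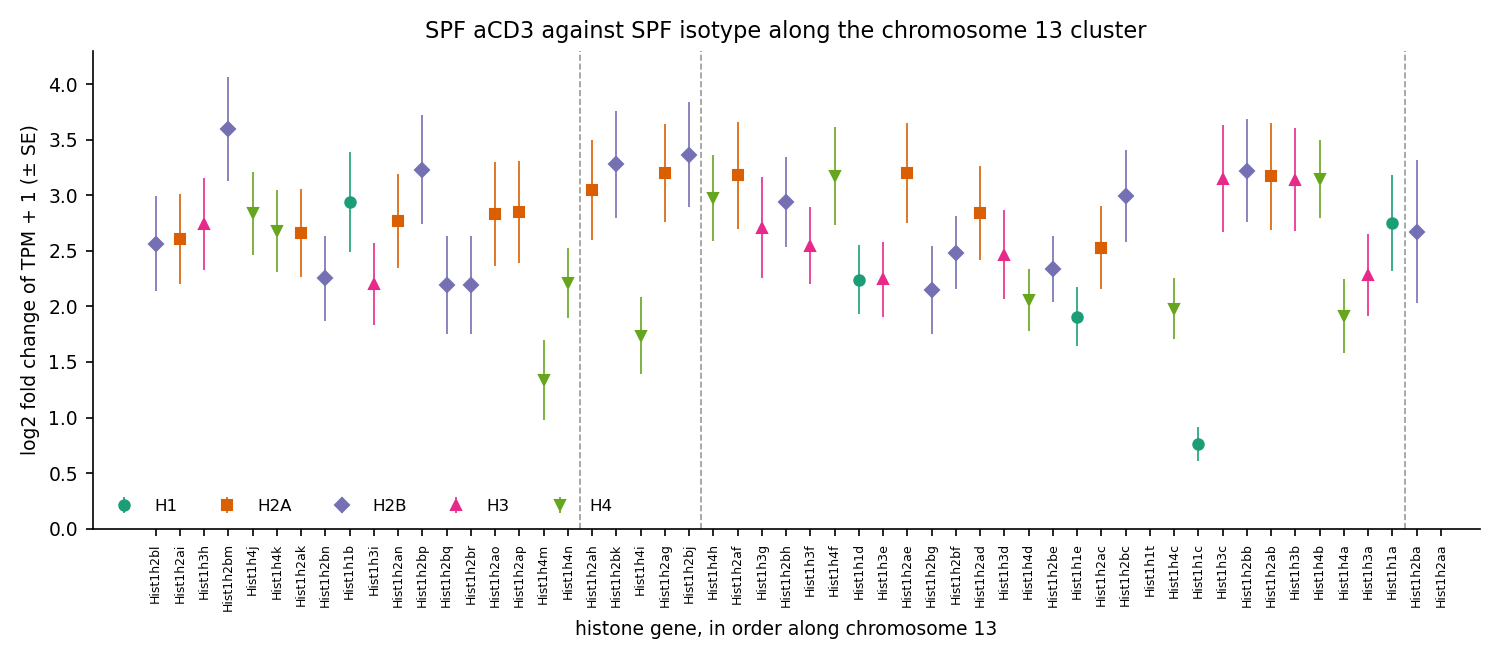
Log2 fold change of TPM + 1 with its standard error, SPF aCD3 against SPF isotype (vertical axis), for the histone genes on chromosome 13 in their order along the chromosome (horizontal axis; dashed lines mark gaps of over 100000 bases; spacing is not to scale). Hist1h1c has the lowest value, 0.76, between neighbours at 1.98 and 3.15; Hist1h1t and Hist1h2aa were not tested and have no point.

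Many H2A and H2B genes stand head to head and share the stretch between their starts. There were 12 such pairings with starts 164 to 281 bases apart, of which Hist1h2ap is counted with both Hist1h2br and Hist1h2bq. Both partners were tested in 11, and both rose in each. The H2B gene had the larger log2 fold change in 5 of 11 and the H2A gene in the rest, with a median difference (H2B minus H2A) of -0.04. In Hist1h2ae and Hist1h2bg, the H2A gene went from a median of 243 to 2569 TPM (3.20) and its H2B partner from 1199 to 5448 TPM (2.15). In Hist1h2ac and Hist1h2bc the order was the other way, 2.53 against 2.99.

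Members with and without the octamer letters had similar responses. The log2 fold change in SPF was 1.51 to 3.20 (median 2.79) in 6 H2A genes with it and 1.45 to 3.20 (median 2.71) in 8 without. In H2B genes it was 2.15 to 3.60 (median 2.67) in 7 with the letters and 2.01 to 3.37 (median 2.52) in 8 without. Both pairs of ranges overlapped almost fully, and no test was made. Among members with a stem-loop, 18 tested genes have an annotated transcript that runs over 200 bases past it, which may be polyadenylated. Those 18, Hist1h1c, Hist1h4d and Hist3h2a among them, had a median SPF isotype level of 576 TPM and a median log2 fold change of 2.29 (0.76 to 3.05), against 243 TPM and 2.85 (1.34 to 3.60) in the 27 whose models end within 200 bases.

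In GF mice the histone genes were also higher on average under aCD3, but the libraries spread widely. Of the 65 members, 10 were called higher in GF aCD3 than in GF isotype (limma, adjusted p from 0.0481), where 2.46% of all genes were called higher and 4.61% lower (300 and 562 genes; 685 and 500 after scaling by median of ratios, with 21 members higher). The log2 fold change was positive in 65 of 65 members, with a median of 1.06 against -0.15 over all genes, and 63 had an unadjusted p under 0.05. How many of all genes lay under that unadjusted cut was not counted. The members' counts at it, here and below, therefore have no background to be set against. The 10 were Hist1h1a, Hist1h1d, Hist1h2ac, Hist1h2ae, Hist1h2ag, Hist1h2ak, Hist2h2aa1, Hist2h2ac, Hist1h2bm and Hist1h4j. Their adjusted p-values lay just under the threshold of 0.05 and the limma count was 0 with a replicate block (61 unadjusted), 0 with a pseudocount of 0.1 (62 unadjusted) and 54 with the block of sample numbers as a term. Over all genes, where 862 were called, those 3 fits called 0, 0 and 2215 genes (730 higher and 1485 lower in the last). In 0 of 65 members, and 0.0328% of all genes, was each GF aCD3 library above each GF isotype library.

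The number of GF calls moved with single libraries, over all genes as over the members. Without F1, M3 or M4 of GF aCD3, 62, 62 and 63 members were called higher and limma called 3630, 4213 and 3859 of all genes. Without any 1 of the other 25 libraries it called 0 members and 0 of all 12182 genes, so no gene was past the threshold. For the 22 libraries outside GF aCD3, 59 to 64 members had an unadjusted p under 0.05, a cut not counted over all genes. The members' median log2 fold change was then 0.93 to 1.13. Without M1, M2 or M5 there were 54, 57 and 49 such members and the median was 0.86, 0.86 and 0.85. Within libraries numbered 25 to 33 or 48 to 54 alone, limma called 0 members, with 23 and 5 at an unadjusted p under 0.05, and the median log2 fold change was 0.94 and 1.11. With voom on recovered reads 13 members were called over all GF libraries, and 952 of all genes (458 higher and 494 lower).

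The GF aCD3 libraries were set apart 1 by 1. M1, M2 and M5 stood above every GF isotype library in 65 of 65 members, while F1 and M4 did so in 2 and M3 in 0. Over all genes the share above every GF isotype library was 13.8% in M1, 14.3% in M2, 12.2% in M5, 6.44% in F1, 7.6% in M4 and 19.3% in M3. Against the isotype libraries of the same block of sample numbers alone, M4 was above every one in 46 members and F1 in 26, M3 in 0, and M1, M2 and M5 in 65. The share of all genes was then 19.0% in M4, 14.3% in F1, 31.4% in M3, 16.2% in M1, 16.6% in M2 and 17.0% in M5. Against the GF isotype libraries of the same block of sample numbers, the median ratio over the 65 members was 3.44 in M1, 3.42 in M2 and 6.54 in M5, and 0.90 in M3, 1.16 in F1 and 1.37 in M4. Against the SPF aCD3 medians the median ratio was 0.91 in M1, 0.82 in M2 and 1.02 in M5, and 0.17 to 0.25 in the other 3. The markers of dividing cells Mki67 and Top2a summed to 524 TPM in M1, 626 in M2 and 465 in M5, and to 215 in M3, 98.0 in M4 and 69.9 in F1, against 51 to 178 in GF isotype. M3 was thus above every GF isotype library in this sum, and in 0 of the 65 members. No label separates these libraries from one another, apart from sex and sample number. Why they differ was not tested.

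The pattern held gene by gene. Hist1h2bm was at 1727 TPM in M1, 1808 in M2 and 2528 in M5, and at 386 in M3, 354 in M4 and 280.5 in F1, against 121 to 503 TPM (median 325) in GF isotype (log2 fold change 1.47 ± 0.43, adjusted p = 0.0484). Hist1h1c was at 8369, 8241 and 7953 TPM in M1, M2 and M5 and at 4489, 4870 and 4130 TPM in M3, M4 and F1, against 3467 to 5226 TPM in GF isotype (0.45 ± 0.14, adjusted p = 0.0502). Of both genes, the levels in M3, M4 and F1 lay inside the range of the 10 GF isotype libraries.

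Other named members show the same spread. Hist1h3c, the H3 gene with the largest GF value, was at 486 to 3081 TPM in GF isotype and 1186 to 9858 TPM in GF aCD3 (1.40 ± 0.44, adjusted p = 0.0516), and Hist1h4j at 131 to 317 TPM and 186 to 1500 TPM (1.19 ± 0.34, adjusted p = 0.0484). Hist1h2ag, which had the largest H2A value, was at 107 to 477 TPM and 267 to 1811 TPM (1.46 ± 0.41, adjusted p = 0.0481). The smallest GF values of the H2A, H2B, H3 and H4 classes were those of Hist2h2ab (0.44 ± 0.27), Hist3h2ba (0.64 ± 0.27), Hist1h3e (0.83 ± 0.31) and Hist1h4c (0.69 ± 0.25), which did not pass the threshold.

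**Figure D5:**
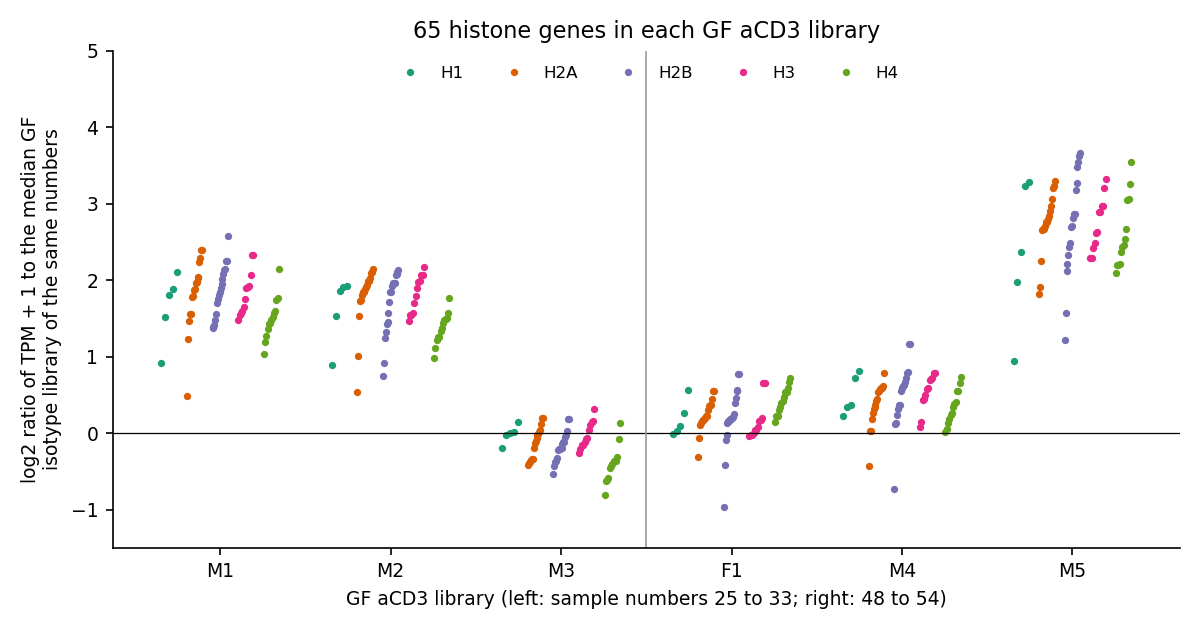
Log2 ratio of TPM + 1 to the median GF isotype library of the same block of sample numbers (vertical axis) for 65 histone genes in each of the 6 GF aCD3 libraries (horizontal axis), coloured by class. M1, M2 and M5 lie above 0 in every gene, with median ratios of 3.44, 3.42 and 6.54 before the logarithm, and M3, F1 and M4 lie around or little above 0.

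The GF isotype libraries themselves differed by block of sample numbers. The 6 numbered 25 to 33 had 5.79% to 9.24% of TPM in histone genes and the 4 numbered 48 to 54 had 3.79% to 5.59%. In 27 of 65 members, and 4.53% of all genes, each library of the first block was above each of the second. The summed TPM of Mki67 and Top2a was 135 to 178 in the first block and 51 to 79.8 in the second. In SPF isotype the 3 female libraries (5.17% to 7.04%) were above the 3 male ones (4.05% to 4.76%), without overlap in 37 of 65 members and 3.6% of all genes. Mki67 and Top2a summed to 93.3 to 108 TPM in those females and 56.2 to 57.7 TPM in those males, and the B and plasma cell genes to 95.7 to 148 and 211 to 272 TPM. The part of these in the difference was not tested. In GF isotype numbered 25 to 33 the female (5.79% to 8.04%) and male (7.69% to 9.24%) libraries overlapped. Among those numbered 48 to 54 the 2 females (5.26% and 5.59%) were above the 2 males (3.79% and 4.66%).

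Between housings, isotype libraries differed detectably in few or no single histone genes, depending on the fit. limma called 0 of 65 members between GF isotype and SPF isotype, where 6.42% of all genes were called higher and 0.755% lower in GF; median-of-ratios scaling gave 66 genes called higher and 133 lower, and 0 members. At an unadjusted p under 0.05 there were 6 members, voom on recovered reads called 0 as well (375 of all genes), and the median log2 fold change was 0.35 against 0.15 over all genes. The log2 fold change was positive in 59 of 65 members. With array weights 8 members were called (1904 of all genes), and 2 with TPM rescaled without Rn45s and histone genes (2361), all of them higher in GF. The count was 2 without GF isotype M5 and 2 without GF aCD3 F1, with 805 and 886 of all genes called, against 874. The largest value was that of Hist2h3c1 and its same-position row Hist2h3c2 (1.30 ± 0.43, adjusted p = 0.0628, limma), with Hist2h3c1 at 23.7 to 128 TPM in SPF isotype and 59.3 to 199 TPM in GF isotype.

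Under aCD3, most histone genes were lower in GF than in SPF mice. Of 65 members 54 were called lower (limma, adjusted p from 0.000843), where 4.46% of all genes were called lower and 48.9% higher. The median log2 fold change was -1.19, against 0.34 over all genes. After scaling by median of ratios 1927 genes were called higher and 2059 lower, with 58 members lower and a median of -1.60. The smallest adjusted p was that of Hist1h4c, at 1975 to 3293 TPM in SPF aCD3 and 481 to 2653 TPM in GF aCD3 (-1.35 ± 0.28). The groups differed in spread as much as in level: F1, M3 and M4 were below every SPF aCD3 library in 65 of 65 members each, and M1, M2 and M5 in 26, 34 and 7. The share of all genes below every SPF aCD3 library was 13% in F1, 10.8% in M3, 12.5% in M4, 6.9% in M1, 5.6% in M2 and 7.51% in M5. Without F1 the count was 24, and with a replicate block 30, with 272 and 356 of all genes called lower, against 543. With array weights it was 14, with 198 of all genes called lower.

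The difference between the aCD3 effects of the housings, GF minus SPF, was called in 9 of 65 members, all lower, against 1.04% of all genes called lower and 2.44% higher (127 and 297 genes; 794 and 629 after scaling by median of ratios, with 28 members lower). The median over the 65 was -1.58, against 0.20 over all genes. The 9 were Hist2h2ac, Hist1h2be, Hist1h2bf, Hist2h2bb, Hist1h3f, Hist1h4b, Hist1h4h, Hist1h4k and Hist2h4, of which 4 are H4 genes and 3 lie on chromosome 3. Of these 9, Hist1h4b had the largest difference, -2.16 ± 0.48 (adjusted p = 0.0218), with an effect of 3.14 in SPF and 0.98 in GF mice. The count was 0 without F1, 1 without M3 and 1 without M4 of GF aCD3, 48 without M1, 52 without M2 and 55 without M5 of that group, and 1 with a replicate block. Over all genes, where 424 were called, the count was 32 without F1, 137 without M3, 97 without M4, 2044 without M1, 2491 without M2 and 3187 without M5. Other libraries moved the count as well: it was 34 without SPF isotype F3, with 2070 genes called, and 14 without GF isotype M5, with 343. In SPF isotype F3 the row Rn45s took 22.9% of TPM, against 13.1% to 14.9% in the rest of its group, and its part was not tested. The count of members called varied further. It was 1 to 4 without any 1 of the SPF aCD3 libraries (108 to 278 genes), 1 to 4 without SPF isotype F2, M1, M2 or M3 (171 to 259 genes), and 1 to 5 without GF isotype F1, F2, F3, F5, M1, M2 or M3 (200 to 316 genes). Without SPF isotype F1 it was 8 (240 genes), and without GF isotype F4 or M4 it was 10 (420 and 425 genes).

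Histone genes outside the rule went in both directions. Of 15 such genes with a row, 10 were tested; between the SPF groups 4 rose and 4 fell under aCD3 (14.2% and 50.7% of all genes), and their median log2 fold change was -0.07 (-0.35 over all genes). Under median-of-ratios scaling 5 were called higher and 1 lower, against 3727 higher and 3575 lower of all 12182 genes. H2afx, an H2A variant phosphorylated at DNA breaks, rose like the members, from 127 to 193 TPM to 1003 to 1379 TPM (2.87 ± 0.37, adjusted p = 2.81e-06). Cenpa, the H3 variant of the centromere, rose from 18.8 to 25.5 TPM to 61 to 75.7 TPM (1.58 ± 0.15). H2afz and H2afv, which encode the H2A.Z variants, rose by 0.56 ± 0.16 and 0.42 ± 0.11.

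The replication-independent H3.3 genes were lower in TPM in SPF aCD3, by an amount that depended on the scaling. H3f3b was at 1131 to 1312 TPM under isotype and 758 to 820 TPM under aCD3 (-0.62 ± 0.10, adjusted p = 1.17e-05), and H3f3a at 73.9 to 88.7 TPM and 47.6 to 64.9 TPM (-0.49 ± 0.09). After scaling by median of ratios H3f3b was at -0.20 (limma, adjusted p = 0.0241) and H3f3a at -0.07 (adjusted p = 0.435), which did not pass. H1f0, a linker histone of resting cells, fell by 0.72 on the log2 scale (adjusted p = 0.000127) but under median-of-ratios scaling was at -0.30 and missed the threshold (limma, adjusted p = 0.0609), and H2afj fell by 0.33 in TPM but was at 0.09 after scaling by median of ratios and at 0.06 by voom. H2afy, encoding macroH2A, and H3f3c did not pass the threshold (-0.14 ± 0.13 and -0.01 ± 0.14), although H3f3c was called higher after scaling by median of ratios (0.41). H2afy2 and the germ line genes H1foo, Hils1, H2afb1 and H2al2a were under 1 TPM in every library. In GF mice 3 of the 10 were called higher, H2afx, H2afz and Cenpa, and 0 lower, where 2.46% of all genes were called higher and 4.61% lower.

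The machinery that makes and ends histone mRNA changed less than the mRNA. Of 16 genes tested, 7 rose and 3 fell in SPF mice, where 14.2% of all genes rose and 50.7% fell, with a median log2 fold change of 0.11. Under median-of-ratios scaling 12 were called higher and 1 lower, with a median of 0.49, against 3727 higher and 3575 lower of all 12182 genes. Slbp, which encodes the protein that binds the stem-loop, rose from 53.8 to 62.3 TPM to 63.5 to 96.8 TPM (0.54 ± 0.09, adjusted p = 2.46e-05). Casp8ap2 (FLASH) rose by 0.63 ± 0.11 and Zfp473, a U7 particle-associated zinc finger protein, by 0.67 ± 0.16. Smaller rises were those of Ncbp2 (0.32), Srrt (0.32), Cpsf2 (0.20) and Cstf2 (0.19).

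Npat, the coactivator of histone genes, was at 11.2 to 18.0 TPM in SPF isotype and 13.6 to 17.5 TPM in SPF aCD3 (-0.04 ± 0.09), and was called higher after scaling by median of ratios (0.36), by voom (0.34) and with TPM rescaled without the histone genes (0.23). Tut7, a uridyltransferase that acts in histone mRNA decay, fell by 0.69 (adjusted p = 0.000119), and Cpsf3, the nuclease that cuts after the stem-loop, fell by 0.50. After scaling by median of ratios Tut7 was at -0.29 and still called, and Cpsf3 at -0.11 and not. Upf1, a helicase of mRNA decay, fell by 0.25 in TPM but was at 0.16 after scaling by median of ratios. Ncbp1 (-0.14), Lsm10 (-0.21), Lsm11 (-0.10), Coil (0.06) and Eri1 (0.15) did not pass the threshold in TPM. Under median-of-ratios scaling Ncbp1 (0.26), Coil (0.42) and Eri1 (0.56) were called higher, and Lsm10 (0.20) and Lsm11 (0.20) did not pass. Coil and Eri1 were also called higher by voom and with rescaled TPM. Rnu7, the U7 small nuclear RNA that guides the cut, was listed at 0 in every library. In GF mice 1 of the 16 was called, Zfp473, which was higher (0.54 ± 0.15), where 2.46% of all genes were called higher and 4.61% lower.

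Of 26 chaperone and deposition genes, 12 rose and 7 fell in SPF mice (14.2% and 50.7% of all genes), with a median of 0.19. Under median-of-ratios scaling 18 were called higher and 3 lower, against 3727 higher and 3575 lower of all 12182 genes. The largest rises were those of Asf1b, an H3-H4 chaperone of replicating cells (3.89 to 8.87 TPM, then 23.8 to 32.5 TPM; 2.20 ± 0.33), and Chaf1a, the large subunit of CAF-1, which deposits H3-H4 behind the fork (1.44 to 3.46 TPM, then 9.69 to 14.2 TPM; 2.06 ± 0.32). The lowest values were those of Cabin1, a subunit of the HIRA complex that deposits H3.3 (-0.71 ± 0.15), and Spty2d1 (-0.66 ± 0.17), of which Spty2d1 missed the threshold under median-of-ratios scaling (-0.25). Of 40 S phase genes 38 rose and 0 fell, with a median of 1.66. Rrm2 of ribonucleotide reductase (3.31 ± 0.40) and the origin factor Mcm10 (2.91 ± 0.36) were highest, and Ccne2 (0.09 ± 0.12) and Prim2 (0.20 ± 0.11) were the 2 that did not pass in TPM. Both were called higher under each of the other scalings, by median of ratios at 0.49 and 0.50. In GF mice 3 of the chaperone genes and 19 of the S phase genes were called higher, against 2.46% of all genes.

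The 10 genes most like the summed histone members over the 28 libraries were named by their correlation alone. Pearson's r on the log2 scale was 0.987 for Cep55, 0.986 for H2afx, 0.984 for Rrm2 and 0.979 to 0.984 for Kif15, Tpx2, Knl1, Dlgap5, Ccnb2, Asf1b and Bub1. These are descriptions: the libraries share group, housing and block of sample numbers. Within the 10 GF isotype libraries r was 0.88 to 0.95 for these 10 genes, and within the 6 SPF aCD3 libraries, whose histone sums lay close together, it ran from -0.96 to 0.14.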

How the data were processed

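RNA of sorted CD4+ T cells was measured in 28 libraries as TPM. The deposited TPM values were made with HOMER (analyzeRepeats.pl, per the file headers) over RefSeq genes of build mm10, with transcripts of a gene condensed. The aligner and the use of strand are not given in the sources used here, and 26 TPM columns of no sample of the series were not used. TPM times length was a whole multiple of 1 step per library in 100.0% of values (within 0.1 read), which gave reads per gene.

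The test was limma 3.58.1 in R 4.3.3. Its model of log2(TPM + 1) had 1 term per group and a term for sex, fitted over all 28 libraries and the 12182 genes with at least 1 TPM in at least 6 libraries, with p-values adjusted by Benjamini-Hochberg and a threshold of 0.05. It was tested on simulated data. Python 3.11.15, NumPy 2.4.6 and pandas 2.3.3 did the rest. Promoters came from RefSeq and transcripts from GENCODE M21.

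The members and gene lists were chosen with earlier results of these data known, so their sums and counts carry no test of their own. Named members are, in each class, the 2 with the highest mean TPM and those with the highest and lowest log2 fold change in SPF and in GF, together with all members off chromosomes 13 and 3. Other genes come from lists of histones outside the rule, histone mRNA processing, chaperones, S phase and cell markers. Hist1h1d, Hist1h2ba, Hist1h4b, Hist2h3c1 and genes named with their neighbour or pair partner were added after their values were seen. Alternatives were other pseudocounts, filters, scalings, voom, fits without sex, with array weights or with a replicate block, and leaving out each library. Intervals of single libraries cover counting error only and are not given.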

Additional observations from a re-analysis of the deposited data

Results flagged for a closer look

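For 9 histone genes the aCD3 effect differed between housings in limma's test of the difference (GF minus SPF, on the log2 scale, n = 28 libraries). The value was -1.51 for Hist2h2ac, -1.59 for Hist1h2bf, -1.48 for Hist1h2be, -1.75 for Hist2h2bb, -1.68 for Hist1h3f, -1.76 for Hist1h4k, -2.08 for Hist1h4h, -2.16 for Hist1h4b and -1.61 for Hist2h4, with adjusted p-values from 0.0218 to 0.049. Housing and the block of sample numbers cannot be told apart, and within GF aCD3 the members' median ratio to isotype libraries of the same block was 1.16 in F1, 0.90 in M3 and 1.37 in M4, against 3.42 to 6.54 in M1, M2 and M5.

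Single libraries stood apart from their group in 15 of 281 groups of values checked, where chance gives about 1 in 20, a rate close to the one seen. Where all other libraries of a group are at 0, any value above 0 passes this check. Among the members, Hist2h2ab was at 46.7 TPM in SPF isotype F3 (next 33.8) and at 143 TPM in GF aCD3 M5 (next 62.0). Hist1h3i was at 2722 TPM in SPF isotype F1 (median 1513), and Hist1h4m at 143 TPM in SPF isotype F3 (median 29.5). H1fx was at 0.97 TPM in SPF aCD3 F2 and at 0 in the 5 other libraries of that group.

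Among genes outside the rule, H3f3a was at 73.9 TPM in SPF isotype F3 and 47.6 TPM in SPF aCD3 M2, the lowest of their groups. H1foo was at 0.22 TPM in SPF aCD3 M2 and 0.17 TPM in GF aCD3 M3, with the rest at 0. Lsm11 was lowest at 0.67 TPM in SPF isotype F2 and 2.24 TPM in GF aCD3 M5, and Zfp473 at 0.87 TPM in SPF aCD3 F1. Npat (11.2 TPM) and Ncbp1 (15.3 TPM) were lowest in SPF isotype F3, and Upf1 was highest, at 41.9 TPM, in SPF isotype F2. In SPF isotype F3 the row Rn45s took 22.9% of TPM, against 13.1% to 14.9% in the rest of its group. The part of that share in the values of F3 was not tested.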

How the results depend on the processing

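The 65 calls between the SPF groups were made under every alternative run, including all 28 fits that leave out 1 library. The other counts moved. For GF aCD3 against GF isotype (10) 0 were called at a pseudocount of 0.1 and 0 without the low-value filter (62 and 64 members at an unadjusted p under 0.05), 31 with a filter of 5 TPM, 21 after scaling by median of ratios, 56 without the sex term, 62 with array weights, 54 with the block of sample numbers as a term and 0 within either block, an alternative added after seeing the data; leaving out 1 library gave 0 to 63. Over all genes those counts (862) were 0, 0, 1117, 1185, 2472, 3636, 2215 and 1 in each block, and 0 to 4213. For GF isotype against SPF isotype (0) it was 2 with TPM rescaled without Rn45s and histone genes and 8 with array weights (2361 and 1904 of all genes, against 874), and 0 to 2 leaving out 1 library. For GF aCD3 against SPF aCD3 (54) it was 14 with array weights (3680 of all genes, against 6496) and 24 to 58 leaving out 1 library. For the difference of the aCD3 effects (9) it was 18 and 5 with pseudocounts of 0.1 and 5, 1 with no filter, 14 with a filter of 5 TPM, 28 by median of ratios, 16 with rescaled TPM, 33 by voom, 2 with array weights and 0 to 55 leaving out 1 library. Over all genes those counts (424) were 774, 273, 233, 440, 1423, 647, 1631, 159 and 32 to 3187.

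With the replicate block in place of sex, the counts were 65 (SPF), 0 (GF aCD3 against isotype), 0 (isotypes), 30 (aCD3) and 1 (difference). Over all genes they were 7794, 0, 658, 5715 and 162 in that order. Same-numbered libraries correlated in their deviations from group means at r of -0.21 to 0.20, and 1 of 12, SPF F3, was best matched by its own number, so the numbers do not pair the libraries.

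Between the SPF groups the fold of medians was 5.62 over all members, 7.16 by share of reads and 3.79 over the 17 members without long shared stretches. By class those alternatives gave 4.18 (H1, reads), 8.81 and 2.73 (H2A), 9.87 and 6.35 (H2B), 8.43 (H3, reads), and 6.62 and 3.97 (H4). By chromosome they gave 7.10 and 3.49 (13), 8.16 and 5.52 (3), 3.87 (11, reads) and 4.32 (6, reads). Counting rows that share a position once, an alternative added after seeing the data, moved no fold by more than the spread between libraries.

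Between the SPF groups, 5 named list genes outside the rule changed sign with scaling in a value called under at least 1 setting: H2afj (0.087 by median of ratios, 0.056 by voom), H3f3c (0.41), Npat (0.36, 0.34 and 0.23 with rescaled TPM), Ncbp1 (0.26 and 0.23 by voom) and Upf1 (0.16, 0.12 by voom and 0.0098 with rescaled TPM). Chaperone and S phase genes that were not named were not checked for a change of sign. H2afy (-0.14), Lsm10 (-0.21) and Lsm11 (-0.10) turned positive under all 3 scalings (0.27, 0.20 and 0.20 by median of ratios), called under none. No named member changed sign in a called value. Hist1h1t, Hist1h2aa and H1fx are too low to compare. The causes of these changes were not tested.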
